A study of Mus musculus with 14 samples.

Results

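Ctla4, Icos and Cd28 encode 3 receptors of the CD28 family of T cell costimulation. They were taken by symbol from the deposited gene table, and make 3 of its 25124 genes. All 3 passed the filter on low counts, as did 13434 genes in all, and each was measured in all 14 libraries. CD28 gives T cells the second signal that accompanies antigen recognition, by binding CD80 and CD86 on antigen-presenting cells. CTLA-4 binds the same ligands more tightly and restrains T cells. Regulatory T cells (Tregs) hold much CTLA-4, mostly in endosomes from which it cycles to the surface. ICOS appears on T cells after activation, binds ICOS ligand, and signals mainly through phosphoinositide 3-kinase.

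The libraries came from tumours of female C57BL/6 mice aged 8 to 12 weeks, all of genotype GATIR Foxp3Cre-rfp Gata3Cre-yfp, that carried subcutaneous AE17-OVA mesothelioma, a mouse tumour line with the model antigen ovalbumin. Mice were given 200 µg of anti-PD-L1 (clone MIH5) or of isotype antibody (clone 2A3) into the peritoneum on day 10, and tumours were harvested on day 13. The sort separated PD-1+ Tregs (3 anti-PD-L1 and 2 isotype libraries), PD-1- Tregs (2 and 2) and CD4 T cells (3 and 2) by CD4, CD25, the red reporter that Foxp3 drives, and PD-1. RNA was amplified by Smart-seq2, which reads full-length transcripts and adds no molecular identifiers. The series text calls the replicates biological but does not tie libraries to mice or pools, so a p-value covers only variation among these libraries, which may be technical.

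Total counts per library ran from 10638848 to 15030804. Genes detected numbered 8027 to 8801 in PD-1- Tregs, 9662 to 11312 in PD-1+ Tregs and 12119 to 14535 in CD4 T cells. Scatter within groups, as chi-square over its degrees of freedom for each replicate pair, was highest in PD-1- Tregs. It was 327 and 454 there, 149 to 233 in PD-1+ Tregs and 28.1 to 78.2 in CD4 libraries. The labels say female mice, yet 3 anti-PD-L1 libraries, the ones with number 3 in the brackets of their titles, 1 per population, held 2767 to 2966 counts of the Y-linked genes Ddx3y, Eif2s3y, Kdm5d and Uty, while the other 11 held at most 1. For the members the main results are given with and without them. For most called pathway genes only the fold change without them is given. All 6 T cell markers were detected in every library. Foxp3 ranged from 15.9 to 156 CPM (counts per 1000000, on TMM-scaled library sizes) in PD-1+ Tregs, from 114 to 198 CPM in PD-1- Tregs and from 16.3 to 55.0 CPM in CD4 T cells, so by Foxp3 PD-1+ Tregs overlapped CD4 T cells. Il2ra, which encodes CD25, ranged from 192 to 391 CPM, from 247 to 662 CPM and from 13.4 to 79.5 CPM in those populations. Macrophage and monocyte markers (10 genes) summed to 3228 to 5744 CPM in PD-1+ Tregs, 308 to 815 CPM in PD-1- Tregs and 1879 to 5036 CPM in CD4 T cells. Adgre1, C1qa, Fcgr1 and Mrc1 were at 0 in 3, 4, 4 and 2 libraries.

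The 3 genes lie side by side on the plus strand of chromosome 1 (GRCm38, GENCODE M21). The ends given are those of a single transcript per gene. They are chr1:60746358-60773359 for Cd28-201, chr1:60909025-60915832 for Ctla4-201 and chr1:60977927-61000320 for Icos-202. The gaps between these transcripts are 135665 bases for Cd28 and Ctla4 and 62094 bases for Ctla4 and Icos. The RefSeq annotation starts the Icos gene further upstream, at chr1:60960773, so by it the gap to Ctla4 is smaller. Gm37039 overlaps Icos on the same strand, so reads of the overlap could belong to either.

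The coding sequence of the loop that contacts the ligand shows how the members are related, and is printed because CTLA-4 and CD28 share ligands that ICOS does not bind. All 3 windows lie in exon 2, on the plus strand, and the capitals mark the loop.
Ctla4, chr1:60912704-60912739: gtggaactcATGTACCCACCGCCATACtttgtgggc
Cd28, chr1:60763266-60763301: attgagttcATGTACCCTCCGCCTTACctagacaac
Icos, chr1:60993974-60994009: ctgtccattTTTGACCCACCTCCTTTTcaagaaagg
Within the capitals Ctla4 and Cd28 shared 16 of 18 bases, and each shared 11 of 18 with Icos.

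The tail of each receptor holds a tyrosine motif, the docking site for phosphoinositide 3-kinase in CD28 and ICOS and a trafficking signal in CTLA-4. It is shown because all 3 receptors carry it. The windows lie in exon 4, and the capitals mark the motif.
Ctla4, chr1:60914637-60914666: acaggggtcTATGTGAAAATGcccccaaca
Cd28, chr1:60769684-60769713: caaagtgacTACATGAACATGactccccgg
Icos, chr1:60995551-60995580: aatagtgaaTACATGTTCATGgcggcagtc
Here Ctla4 and Cd28 shared 9 of 12 bases, Ctla4 and Icos 7 of 12, and Cd28 and Icos 10 of 12.

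Icos was higher under anti-PD-L1 than under isotype in each of the 3 populations. In PD-1+ Tregs it stood at 559, 492 and 616 CPM under anti-PD-L1, against 244 and 209 CPM under isotype. In PD-1- Tregs it stood at 759.6 and 327 CPM under anti-PD-L1, against 256 and 234 CPM under isotype. In CD4 T cells it stood at 327, 425 and 412 CPM under anti-PD-L1, against 161 and 156 CPM under isotype. No anti-PD-L1 library overlapped an isotype library of its own population, a separation that 0.625% of genes showed in that direction in all 3 populations at once. By population the share of genes was 7.69% (PD-1+ Tregs), 12.5% (PD-1- Tregs) and 12.5% (CD4 T cells).

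**Figure D1:**
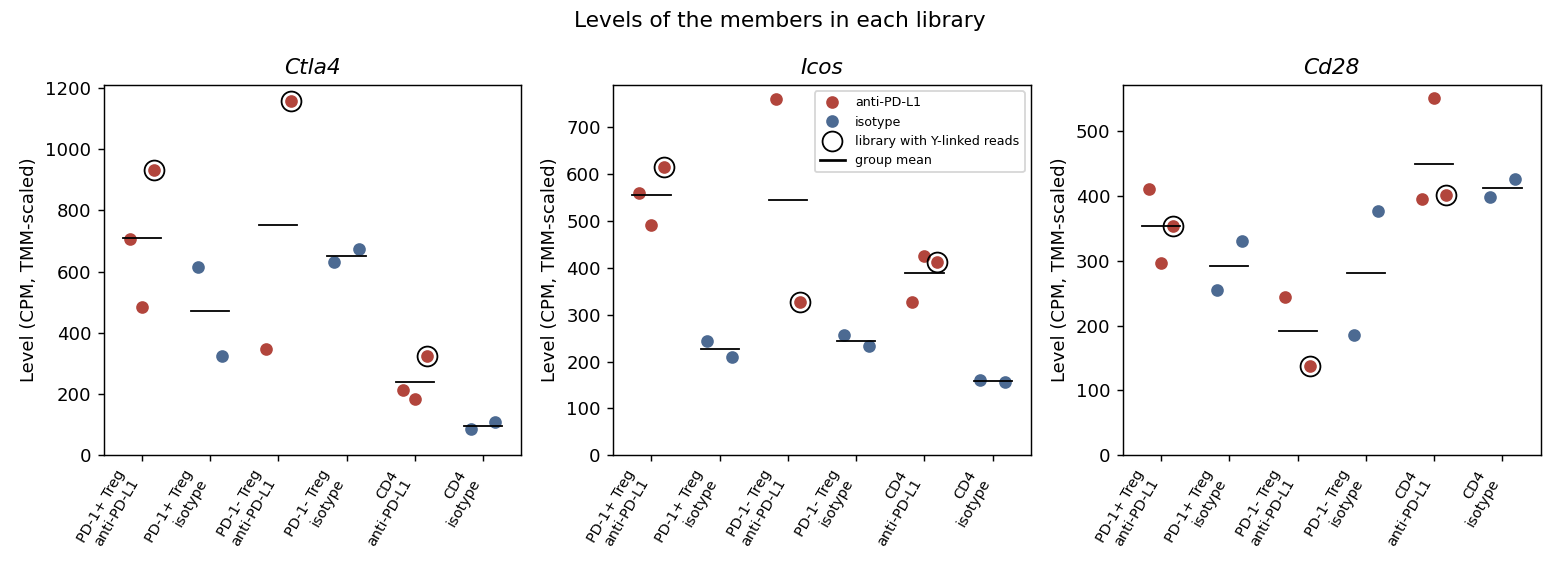
Level of Ctla4, Icos and Cd28 in each library (CPM on TMM-scaled sizes), by population and antibody. Points are libraries, bars are group means and rings mark the 3 libraries with Y-linked reads. Icos was higher under anti-PD-L1 in each population, with the lowest anti-PD-L1 library at 327 CPM and the highest isotype library at 256 CPM.

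As the mean of the 3 populations, Icos rose by 1.25 ± 0.18 on the log2 scale (2.37-fold, SE, 8 anti-PD-L1 and 6 isotype libraries, edgeR quasi-likelihood test, adjusted p = 0.00797). In that comparison 1.23% of genes passed the threshold of 0.05, and Icos was the only one of the 3 members to pass. The test counted all libraries as separate. If libraries of different populations came from the same mice, the units for the antibody would be fewer. Within single populations the log2 fold change of Icos was 1.29 ± 0.31 in PD-1+ Tregs (adjusted p = 0.506, 0.0149% of genes past the threshold), 1.15 ± 0.33 in PD-1- Tregs (adjusted p = 0.0869, 2.66% past it) and 1.29 ± 0.31 in CD4 T cells (adjusted p = 0.897, 0.00744% past it). None of these passed in edgeR, and their unadjusted p-values were 0.00126, 0.00434 and 0.00127. The difference of the fold between PD-1+ and PD-1- Tregs was 0.14 ± 0.44, with a 95% confidence interval from -0.82 to 1.10, so the test did not tell the populations apart.

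The log2 fold change of Icos over the populations was 1.34 (adjusted p = 0.00478) without the Y-linked libraries, and kept its call with each single library left out (adjusted p up to 0.0480). With limma-voom and library quality weights the adjusted p was 0.0607. Summed T cell markers also differed between the arms in CD4 T cells, at 5129 to 5265 CPM under anti-PD-L1 against 4171 to 4456 CPM under isotype. Per 100 counts of the CD3 genes Cd3d, Cd3e and Cd3g, Icos held 20.02, 23.7 and 28.2 under anti-PD-L1 against 10.3 and 10.1 under isotype in PD-1+ Tregs. It held 35.5 and 12.9 against 11.8 and 10.9 in PD-1- Tregs, and 11.2, 14.7 and 15.1 against 7.17 and 6.62 in CD4 T cells, with no overlap in any population. In bulk libraries, fewer cells with a transcript and less of it per cell cannot be told apart.

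Summed B cell markers were lower under anti-PD-L1, without overlap, in 2 of the 3 populations. Their 5 genes summed to 22.9 to 82.2 CPM under anti-PD-L1 against 189 to 364 CPM under isotype in PD-1+ Tregs, and to 45.0 to 83.0 CPM against 174 to 200.1 CPM in CD4 T cells. The sums were 42.0 to 304 CPM under anti-PD-L1 and 80.4 to 96.2 CPM under isotype in PD-1- Tregs. Ms4a1 and Pax5 were at 0 in 6 and 5 of the 14 libraries. Summed Treg markers (Foxp3, Il2ra and Ikzf2) also differed between the arms without overlap. The sums were 205 to 316 CPM under anti-PD-L1 against 95.5 to 96.3 CPM under isotype in CD4 T cells, and 816 to 893 CPM against 574 to 780.0 CPM in PD-1+ Tregs. They ran the other way in PD-1- Tregs, at 717 to 967 CPM under anti-PD-L1 against 1054 to 1426 CPM under isotype. Stromal and mesothelial markers were lower under anti-PD-L1 in CD4 T cells (172 to 558 CPM against 753 to 1081 CPM), as were dendritic cell and MHC class II markers in PD-1- Tregs (8537 to 10570.0 CPM against 13818 to 15099 CPM). The latter sum was mostly Cd74 (4318 to 28148 CPM over all libraries) and H2-Ab1 (2906 to 14661 CPM). The dendritic genes Itgax, Flt3, Xcr1, Clec9a and Zbtb46 reached at most 58.2 CPM, while Cd209a stood at 306 to 1822 CPM. How far the sum measures dendritic cells was not tested. The part of these cell types in the Icos result was not tested. For scale, the share of single genes lower under anti-PD-L1 without overlap was 11.5% (PD-1+ Tregs), 14% (PD-1- Tregs) and 15.5% (CD4 T cells). Higher without overlap were 7.69%, 12.5% and 12.5%, in the same order. Not every marker list is given by arm here. Whether the sums separated more often than single genes was not tested.

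Ctla4 was lowest in CD4 T cells. It stood at 708, 485 and 932 CPM under anti-PD-L1 and at 617 and 323 CPM under isotype in PD-1+ Tregs. The PD-1- Tregs stood at 347 and 1156 CPM under anti-PD-L1 and at 631 and 672 CPM under isotype. In CD4 T cells it stood at 214, 183 and 324 CPM under anti-PD-L1 and at 86.4 and 108 CPM under isotype. Every PD-1- Treg library lay above every CD4 library, which was so for 1.01% of genes. Only 1 pair of libraries overlapped between PD-1+ Tregs and CD4 T cells, at 323 against 324 CPM, where 1.71% of genes were higher and 4.72% lower without overlap.

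Ctla4 was 4.58-fold higher in PD-1- Tregs than in CD4 T cells (2.19 ± 0.35 on the log2 scale, 4 against 5 libraries, edgeR adjusted p = 0.00697, 3.6% of genes past the threshold). It was 3.77-fold higher in PD-1+ Tregs than in CD4 T cells (1.92 ± 0.34, 5 against 5 libraries, adjusted p = 0.0316, 0.35% past it). The median log2 fold change of all genes was -0.94 in the first of these comparisons and -0.23 in the other. Between the Treg types Ctla4 differed by -0.28 ± 0.34, PD-1+ over PD-1-, with a 95% interval from -1.01 to 0.46 (adjusted p = 0.827, 4.28% past it). Means were 702 ± 336 CPM in PD-1- Tregs, 613 ± 230 CPM in PD-1+ Tregs and 183 ± 94.6 CPM in CD4 T cells (SD, n = 4, 5 and 5), and the Treg types do not differ beyond their spread. All 3 members overlapped between the Treg types, where 3.24% of genes were higher and 0.782% lower in PD-1+ Tregs without overlap.

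The call of Ctla4 in PD-1+ Tregs over CD4 T cells was lost without any 1 of 7 libraries: either isotype CD4 library, the first or the second anti-PD-L1 CD4 library, the first isotype PD-1+ library, or anti-PD-L1 PD-1+ library 1 or 3 (adjusted p from 0.0780 to 0.240, log2 fold change from 1.64 to 1.99). The call in PD-1- Tregs was kept without each single library (adjusted p up to 0.0415) and without the Y-linked libraries (1.75, adjusted p = 0.0134). Within an arm, an analysis chosen after seeing the data, PD-1- Tregs over CD4 T cells gave 1.65 under anti-PD-L1 (adjusted p = 0.136) and 2.74 under isotype (0.0326), and PD-1+ Tregs over CD4 T cells gave 1.56 (0.369) and 2.27 (0.347).

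The antibody comparison of Ctla4 did not pass the threshold in any population. The log2 fold change was 0.59 ± 0.46 in PD-1+ Tregs (adjusted p = 0.916), 0.21 ± 0.50 in PD-1- Tregs (adjusted p = 1) and 1.30 ± 0.48 in CD4 T cells (adjusted p = 1, unadjusted 0.0182). In CD4 T cells the arms did not overlap, as 12.5% of genes did not in the same direction, while in both Treg types they did. In those CD4 libraries Foxp3 stood at 27.9 to 55.0 CPM under anti-PD-L1 against 16.3 to 20.8 CPM under isotype, and Il2ra at 39.1 to 79.5 CPM against 13.4 to 13.8 CPM, and their part in the Ctla4 values was not tested. Over the populations it was 0.70 ± 0.28 (edgeR adjusted p = 0.258), and 0.13 (adjusted p = 1.00) without the Y-linked libraries, each of which was the highest anti-PD-L1 library of its population. It was 0.88 (adjusted p = 0.0393) without the first anti-PD-L1 PD-1- library at 347 CPM, and 0.31 without the other. In PD-1- Tregs the direction turned, to -0.93, without the anti-PD-L1 library at 1156 CPM.

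Cd28 was not called in any of the antibody or population comparisons. It stood at 410.1, 296 and 354 CPM under anti-PD-L1 and at 255 and 330.3 CPM under isotype in PD-1+ Tregs. The PD-1- Tregs stood at 244 and 138 CPM under anti-PD-L1 and at 185 and 377 CPM under isotype. In CD4 T cells it stood at 395, 550.2 and 402 CPM under anti-PD-L1 and at 399 and 426 CPM under isotype, and the arms overlapped in each population. The log2 fold change of the antibody over the populations was -0.053 ± 0.20, with a 95% interval from -0.48 to 0.38 (edgeR adjusted p = 1.00).

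By population, Cd28 averaged 236 ± 103 CPM in PD-1- Tregs (n = 4), 329 ± 58.8 CPM in PD-1+ Tregs (n = 5) and 434 ± 66.0 CPM in CD4 T cells (SD, n = 5). PD-1- Tregs lay below CD4 T cells without overlap, as did 13% of all genes, at -0.89 ± 0.25 on the log2 scale (edgeR adjusted p = 0.0663), close to the median of -0.94 over all genes in that comparison. It passed the threshold without the second isotype PD-1- library (-1.21, adjusted p = 0.0176) and without the first anti-PD-L1 PD-1- library (-1.14, adjusted p = 0.0232). PD-1+ Tregs over CD4 T cells gave -0.42 ± 0.23 (adjusted p = 0.552). PD-1+ over PD-1- Tregs gave 0.47 ± 0.25 (adjusted p = 0.301), against an all-gene median of 0.42.

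**Figure D2:**
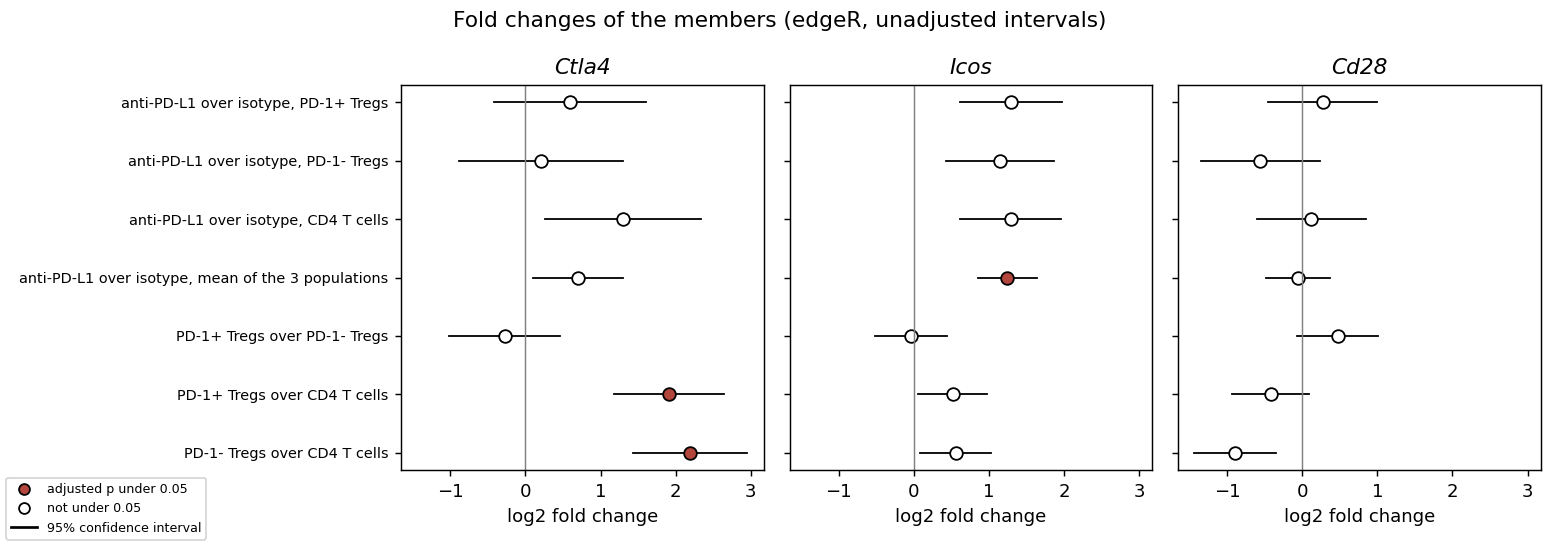
Log2 fold changes of Ctla4, Icos and Cd28 in 4 antibody and 3 population comparisons, with 95% confidence intervals that are not adjusted for the number of genes. Filled points passed an adjusted p of 0.05: Icos for the antibody over the populations (1.25), and Ctla4 in both Treg types over CD4 T cells (1.92 for PD-1+ and 2.19 for PD-1-).

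Icos differed less between populations than Ctla4. It averaged 424 ± 186 CPM in PD-1+ Tregs, 394 ± 247 CPM in PD-1- Tregs and 296 ± 131 CPM in CD4 T cells (SD, n = 5, 4 and 5). The SD covers both arms, so it includes the antibody difference of Icos. The Treg types did not differ beyond it. Its log2 fold change was 0.52 ± 0.21 in PD-1+ Tregs over CD4 T cells (edgeR adjusted p = 0.354, unadjusted 0.0302). In PD-1- Tregs over CD4 T cells it was 0.56 ± 0.22 (adjusted p = 0.132, unadjusted 0.0262). PD-1+ over PD-1- Tregs gave -0.039 ± 0.22 (adjusted p = 1.00). Without the second anti-PD-L1 PD-1- library, PD-1- Tregs over CD4 T cells gave 0.77 and passed (adjusted p = 0.0220).

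Levels per length, as the authors' RPKM, let the members be compared with each other. In PD-1+ Tregs under anti-PD-L1, Ctla4 averaged 297 ± 79.2 RPKM, Icos 137 ± 7.40 RPKM and Cd28 65.5 ± 8.76 RPKM (SD, n = 3). In CD4 T cells under isotype, Cd28 averaged 85.1 ± 4.34 RPKM, Ctla4 45.6 ± 7.54 RPKM and Icos 43.4 ± 0.674 RPKM (SD, n = 2). Ctla4 was the highest of the members in all 5 PD-1+ Treg libraries, in 3 of 4 PD-1- Treg libraries and in 2 of 5 CD4 libraries. Cd28 was the highest in both isotype CD4 libraries and in no other.

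**Figure D3:**
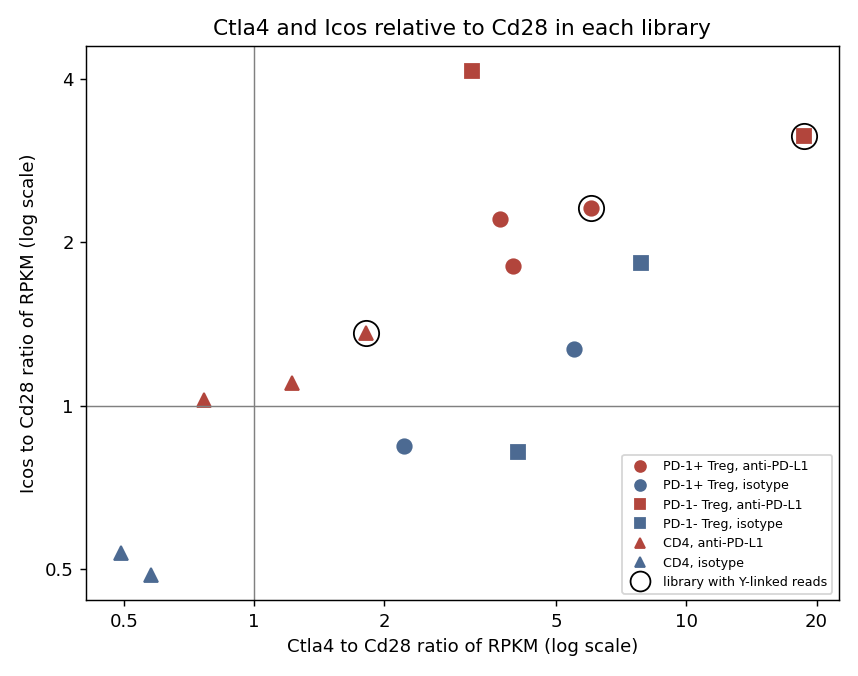
Ratio of Ctla4 to Cd28 (horizontal) and of Icos to Cd28 (vertical) in RPKM, both on log axes, with a point per library and rings on the Y-linked ones. Within each population the anti-PD-L1 libraries lie above the isotype libraries on the vertical axis, and all 9 Treg libraries lie right of all 5 CD4 libraries.

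The ratio of Icos to Cd28 was 1.81 to 2.31 under anti-PD-L1 against 0.841 to 1.27 under isotype in PD-1+ Tregs. It was 3.14 to 4.13 against 0.823 to 1.83 in PD-1- Tregs, and 1.02 to 1.36 against 0.487 to 0.536 in CD4 T cells. The ratio of Ctla4 to Cd28 ran from 2.23 to 18.7 over the Treg libraries and from 0.491 to 1.82 over the CD4 libraries. These ratios describe the same reads as the levels above.

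The genes whose pattern was most like each member were taken as the 5 with the highest Pearson r of log2 CPM over the 14 libraries, among 8830 genes of at least 10 CPM. Libraries share depth, sort and antibody across genes, so r includes the group differences. For Ctla4 they were Tnfrsf4, which encodes the costimulatory receptor OX40 (r = 0.94), the respiratory chain subunit gene Ndufv3 (0.90), the interferon-inducible GTPase gene Gbp6 (0.89), the G protein signalling regulator Rgs1 (0.88) and Ikzf2, which encodes the Treg transcription factor Helios (0.87). For Icos they were Ifngr1, which encodes a chain of the interferon-gamma receptor (0.88), Arl6ip1 (0.87), Acot9 (0.81), Ctla2a (0.79) and the small GTPase gene Arf6 (0.79). For Cd28 they were the kinase gene Mapkapk5 (0.91), the phosphodiesterase genes Pde7a (0.91) and Pde3b (0.90), Tmod3 (0.91) and Wdfy1 (0.90). With Spearman rho 2 of the 5 were again among the 5 highest for each member.

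Of the 57 listed genes that act with the members, all were tested. The ligands of the family are made mainly by antigen-presenting cells. Cd86 stood at 133 to 139 CPM in anti-PD-L1 and at 21.3 and 143 CPM in isotype PD-1+ Tregs, and Cd80 at 7.21 to 44.9 CPM and at 0 and 10.5 CPM. Icosl, the ligand of ICOS, stood at 9.95 to 16.4 CPM and at 11.5 and 26.9 CPM there. No ligand passed the threshold for the antibody in any population, with log2 fold changes over the populations of 2.14 ± 1.65 for Cd80, 0.72 ± 0.42 for Cd86 and 0.046 ± 1.15 for Icosl (edgeR adjusted p = 0.712, 0.490 and 1.00).

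Of the other receptors of the family, Btla differed by 0.53 ± 0.47 over the populations (edgeR adjusted p = 0.808). Pdcd1, which encodes PD-1 and was used in the sort, differed by 1.07 ± 0.28 (adjusted p = 0.0976). It stood at 125 to 245 CPM in anti-PD-L1 and at 85.5 and 115 CPM in isotype PD-1+ Tregs, and at 145 to 275 CPM and at 45.4 and 85.3 CPM in CD4 T cells. PD-1+ Tregs exceeded PD-1- Tregs in Pdcd1 (1.91 ± 0.36, adjusted p = 0.0124), a check of the sort and not a finding.

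In PD-1- Tregs 4 of the 57 genes were higher under anti-PD-L1 and none lower, with 2.66% of all genes past the threshold in either direction. Zap70, the kinase that binds the activated T cell receptor, stood at 485 and 246 CPM, against 104 and 62.9 CPM under isotype (2.13 ± 0.40, edgeR adjusted p = 0.0161). Nfatc1, a calcium-activated transcription factor, stood at 256 and 109.8 CPM, against 24.7 and 24.2 CPM (2.91 ± 0.50, adjusted p = 0.00992). Def6, a guanine exchange factor that takes part in CTLA-4 recycling, stood at 266 and 319 CPM, against 75.4 and 21.5 CPM (2.59 ± 0.52, adjusted p = 0.0207). Leaving out the Y-linked libraries leaves a single anti-PD-L1 library here. The log2 fold change was then 2.51 for Zap70, 3.36 for Nfatc1 and 2.43 for Def6. These values do not show whether the calls held. Lrba, which protects CTLA-4 from lysosomal breakdown, stood at 16.3 and 96.3 CPM, against 0 counts in both isotype libraries, at least 205-fold higher against a floor of 3 counts per library (adjusted p = 0.0207). The library at 96.3 CPM was a Y-linked one. Other listed genes were also at or near 0 there: the first isotype library held 0 counts of Plcg1 and 2 of Bcl10, the second 3 of Ppp2r1a. Whether the Lrba transcript was missed in those libraries was not tested. The call was lost in 9 of 26 alternatives for Lrba, 4 for Zap70, 3 for Def6 and 3 for Nfatc1.

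In the other antibody comparisons 0 of the 57 genes passed in edgeR. For PD-1+ Tregs, for CD4 T cells and over the populations, an unadjusted p under 0.05 was found for 2, 2 and 9 genes. In the same order DESeq2 called 0, 0 and 8 of the 57, limma-voom 0, 0 and 3, limma-voom with quality weights 0, 3 and 0, and limma on log2(RPKM + 1) 0, 0 and 2. Nfatc1 and Zap70 did not pass in PD-1+ Tregs, at -1.10 ± 0.42 and -0.67 ± 0.35, and the difference between the Treg types passed for both (-4.01 ± 0.65, adjusted p = 0.0107, and -2.80 ± 0.53, adjusted p = 0.0241, PD-1+ minus PD-1-, 1.46% of genes past the threshold). Between PD-1- Tregs and CD4 T cells it passed for Nfatc1 (3.18 ± 0.64, adjusted p = 0.0374) and for Lrba (adjusted p = 0.0443), with 0.975% of genes past the threshold. These differences lost their calls in 6 of 27 alternatives for Nfatc1 and 10 of 27 for Zap70 between the Treg types, and in 15 of 27 for Nfatc1 and 19 of 27 for Lrba between PD-1- Tregs and CD4 T cells. The count of 4 in PD-1- Tregs was 0 with only the groups compared in the fit and with limma-voom and quality weights, 7 and 6 with limma on log2(RPKM + 0.1) and log2(RPKM + 1), 12 with DESeq2, 7 or 8 without either isotype PD-1- library and 8 without the second anti-PD-L1 PD-1- library.

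**Figure D4:**
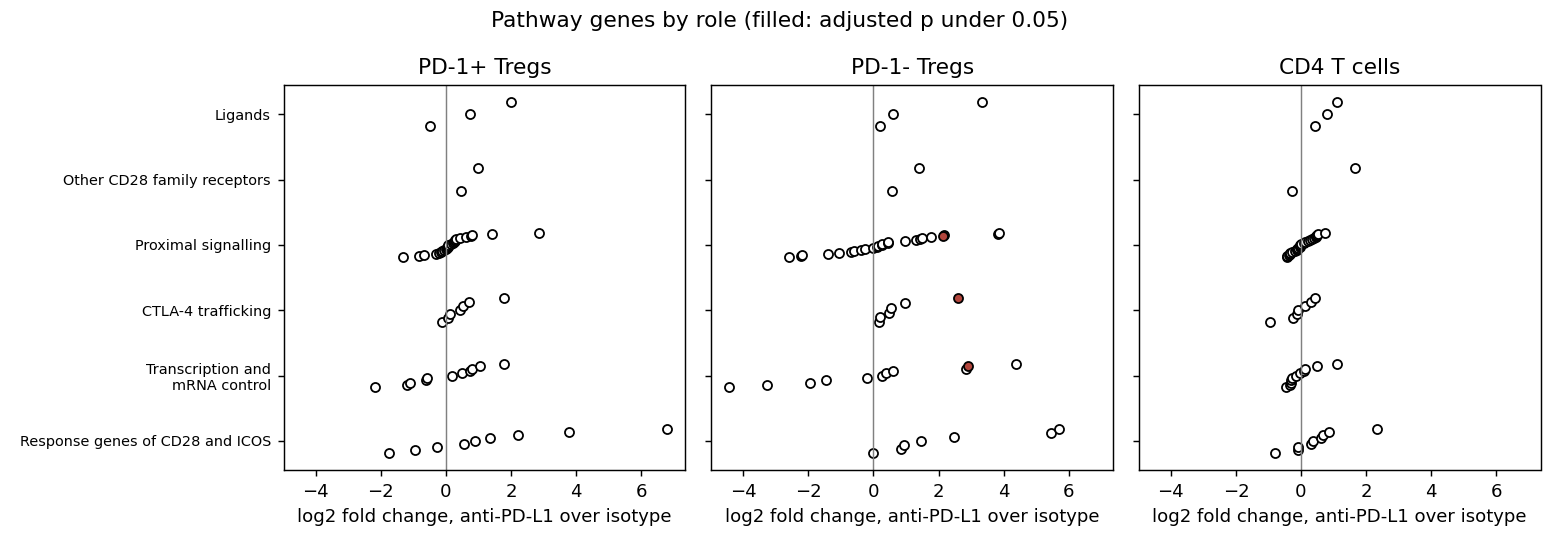
Log2 fold change of anti-PD-L1 over isotype for the listed pathway genes, by role and population, with a point per gene and filled points past an adjusted p of 0.05. The filled points are Zap70, Def6 and Nfatc1 in PD-1- Tregs; Lrba, Il2 and Il21 are not drawn in that population because an arm had 0 counts.

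Between populations, Lat, the adaptor that links the T cell receptor to signalling, was lower in PD-1+ Tregs than in PD-1- Tregs (-0.83 ± 0.15, edgeR adjusted p = 0.0112) and than in CD4 T cells (-0.82 ± 0.15, adjusted p = 0.0333). In PD-1- Tregs, relative to CD4 T cells, Zap70 was lower (-1.45 ± 0.27, adjusted p = 0.0143), Pdcd1 was lower (-1.62 ± 0.35, adjusted p = 0.0281) and Foxp3 was higher (2.66 ± 0.61, adjusted p = 0.0362). Pdcd1 and Foxp3 were sort genes. These calls were lost in 6 of 30 alternatives for Zap70, 12 of 30 for Pdcd1 and 13 of 30 for Foxp3. Of the 57 genes 5.26% passed in PD-1- Tregs over CD4 T cells, against 3.6% of all genes. The shares were 3.51% against 4.28% between the Treg types, and 1.75% against 0.35% in PD-1+ Tregs over CD4 T cells. The Lat calls were lost in 6 of 30 alternatives against PD-1- Tregs (adjusted p = 0.0709 without the first isotype PD-1+ library) and in 15 of 30 against CD4 T cells. Within isotype libraries, a split chosen after seeing the data, Zap70 was lower (log2 fold change -2.41, adjusted p = 0.0161), where PD-1- Tregs stood at 104 and 62.9 CPM against 467 and 418 CPM in CD4 T cells. Within anti-PD-L1 libraries the log2 fold change of Zap70 was -0.49 (adjusted p = 0.502), with 1 PD-1- library inside the CD4 range of 399 to 620.1 CPM, and the median of all genes over both arms was -0.94. Without the Y-linked libraries the log2 fold change of Lat in PD-1+ Tregs was -0.78 over PD-1- Tregs and -0.82 over CD4 T cells. In PD-1- Tregs over CD4 T cells it was then -1.27 for Zap70, -1.52 for Pdcd1 and 2.77 for Foxp3. That fit leaves a single anti-PD-L1 PD-1- library, so its fold changes, Lat included, do not show whether the calls held. Macrophage markers, given above, were lowest in PD-1- Tregs, and their part in these differences was not tested.

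Within 1000000 bases of the cluster lay 10 other protein-coding genes, of which 9 were tested. For the antibody over the populations the smallest edgeR adjusted p among them was 0.374 (Cyp20a1, -2.89 ± 1.40). Between populations Carf (mean 11.8 CPM) passed in PD-1+ over PD-1- Tregs, at 9.69 ± 1.84 (adjusted p = 0.0143, 4.28% of genes past the threshold). It also passed in PD-1- Tregs over CD4 T cells, at -9.13 ± 1.80 (adjusted p = 0.0210, 3.6% past it).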

How the data were processed

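Per the labels and the file header, the authors deposited raw read counts and RPKM values (reads per kilobase, scaled to mapped reads) for 25124 genes in 14 libraries. Tools listed, per the submitters' processing notes, were DESeq2, HOMER 3.12, SAMtools and HISAT2 2.0.4, with build mm10. For annotation, counting settings and strand: not given in the sources used here. Counts were tested in R 4.3.3 with edgeR 4.0.16: filterByExpr (minimum count 10), TMM, 1 fit of 6 group means, robust quasi-likelihood F-test, Benjamini-Hochberg adjustment over 13434 genes, threshold 0.05. SE is the fold change over the root of F. Levels are CPM. Alternatives included limma 3.58.1 and DESeq2 1.42.0. Scripts were tested on simulated data. The criterion for passing was changed from power to calibration after the first one was missed. DESeq2 made more false calls there than its threshold allows, so its larger counts are given no extra weight. The simulation gave every gene the same spread between libraries, below that of these data (common coefficient of variation 1.22). The rate of false calls in these data is therefore not known. Named genes were the members, their 5 nearest genes, ligands, family receptors and called pathway genes. Members and lists were chosen with earlier results of these data known. Confidence intervals cover variation among libraries; the floor covers counting error only. Libraries with the same bracket number correlated at 0.0020 to 0.035 in their deviations (median 0.016), against a median of -0.0084 for the other pairs. Those with the same title number correlated at -0.033 to 0.035. The values were near 0, and numbers were not taken as pairs in the main fit. Yet the Y-linked reads fell in the bracket-3 library of each population, so libraries with the same bracket number may share a source. Coding sequences came from GENCODE M21.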

Additional observations from a re-analysis of the deposited data

How the results depend on the processing

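Values here are log2 fold changes unless stated. The RPKM fits and the exact permutations change the values and the test together. The rise of Icos over the populations kept its direction in all alternatives, at 0.98 to 1.39 with 1 library left out (adjusted p from 0.000476 to 0.0480); its call was lost with limma-voom and library quality weights (1.20, adjusted p = 0.0607) and in the exact permutation within populations (1.20), chosen after seeing the data, in which no gene passed. Within populations Icos passed with DESeq2 in PD-1+ (1.31) and PD-1- Tregs (1.22), without the Y-linked libraries in PD-1- Tregs (1.61, where the 1 anti-PD-L1 library left is assumed to vary like the other groups) and with quality weights in CD4 T cells (1.23), and leaving out 1 library gave 0.41 to 1.62 in PD-1- Tregs. The antibody fold of Ctla4 in PD-1- Tregs turned with limma-voom (-0.15), quality weights (-0.17) and without the Y-linked libraries (-0.94), and ran from -0.93 to 0.82 with 1 library left out; over the populations that range was 0.31 to 0.88. For Cd28 it turned in CD4 T cells with scaling to CD3 counts (-0.18) and over the populations without the Y-linked libraries (0.065), and with 1 library left out ran from -1.03 to 0.022 in PD-1- Tregs, from -0.049 to 0.19 in CD4 T cells and from -0.23 to 0.12 over the populations.

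Ctla4 in PD-1+ Tregs over CD4 T cells lost its call with limma-voom (1.84) and in the exact permutation (1.81). It also lost it within anti-PD-L1 (1.56) or isotype libraries (2.27), and ran from 1.64 to 2.09 with 1 library left out. In PD-1- Tregs over CD4 T cells the call of Ctla4 was lost in the exact permutation (1.96) and within anti-PD-L1 libraries (1.65). No gene passed in these exact permutations, where the smallest possible p was 0.00794, so they cannot show whether a call holds. Cd28 in PD-1- Tregs over CD4 T cells passed with DESeq2 (-0.80), limma-voom (-0.92) and limma on log2(RPKM + 0.1) (-1.001), and ran from -1.21 to -0.70 with 1 library left out; Icos there ran from 0.18 to 0.77. In PD-1+ over PD-1- Tregs the direction turned for Ctla4 without the Y-linked libraries (0.17; -0.59 to 0.30 with 1 library left out) and for Icos in the exact permutation (0.15), with the replicate block by arm and bracket number (0.027) and within anti-PD-L1 libraries (0.031; -0.26 to 0.32).

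Differences of the antibody fold between populations, none of which passed, turned as follows. For Icos, PD-1+ minus PD-1- Tregs gave -0.11 with library totals, -0.045 and -0.046 with limma on log2(RPKM + 0.1) and log2(RPKM + 1), -0.42 without the Y-linked libraries and -0.36 to 0.84 with 1 library left out. PD-1+ Tregs minus CD4 T cells gave -0.049 with library totals, -0.012 with no filter, -0.10 and -0.099 with RPKM, -0.011 with only the groups compared, -0.0089 with the title-number block, -0.052 without the Y-linked libraries and -0.12 to 0.082 with 1 library left out. PD-1- Tregs minus CD4 T cells gave 0.059 with library totals, 0.10 with CD3 scaling, 0.37 without the Y-linked libraries and -0.85 to 0.32 with 1 library left out. For Ctla4, PD-1+ minus PD-1- Tregs ran from -0.26 to 1.48 with 1 library left out. For Cd28, PD-1+ Tregs minus CD4 T cells ran from -0.073 to 0.34. The causes were not tested.

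Over the populations 165 genes passed in the main analysis and 0 to 2019 in the alternatives; the counts were 358 and 0 to 2849 in PD-1- Tregs. With the replicate block by title number Icos over the populations was 1.20 (adjusted p = 0.0466). Scaling to CD3 counts moved the median of all genes over the populations to -0.15, with Icos at 1.10 (adjusted p = 0.0295), and the share of higher calls to 37.4%, against 58.8%. Groups of 2 or 3 libraries limit the precision.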
